A study of Mus musculus with 61 samples.

Results

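The kinases described here stand at the top of the DNA damage response that ends in activation of p63 in oocytes, and their transcripts were followed cell by cell. They are Atm, Atr and Prkdc, which encode the phosphatidylinositol 3-kinase-related kinases (PIKKs) ATM, ATR and the catalytic subunit of DNA-PK, then Chek1 and Chek2, which encode the checkpoint kinases CHK1 and CHK2, and Csnk1a1, Csnk1d and Csnk1e, which encode casein kinase 1 (CK1) alpha, delta and epsilon. The 8 genes were chosen by name and all 8 had a row among the 23927 gene rows of the table. Single cells came from ovaries of wild-type CD-1 mice, an outbred stock, at postnatal day 5. The mice had been given solvent or the DNA-damaging anti-cancer drug doxorubicin by intraperitoneal injection 6 hours earlier. The labels write the dose as 10 mg/kb, so its unit is uncertain. The 61 cells were 16 control oocytes, 16 doxorubicin oocytes, 16 control granulosa cells and 13 doxorubicin granulosa cells, granulosa cells being the somatic cells that surround the oocyte. No animal is named for any cell, so each group counts as 1 sample, no difference was tested, and cells are described by their lowest, median and highest values.

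In a resting oocyte, the p63 protein (gene Trp63) is kept in an inactive form. Double-strand breaks activate ATM, which phosphorylates and switches on CHK2, while ATR, recruited to exposed single-stranded DNA, acts mainly through CHK1. CHK2, and after some drugs CHK1, places a first phosphate on p63, and CK1 then adds further phosphates that release the active form, which turns on cell death genes such as Bbc3 (PUMA) and Pmaip1 (NOXA). DNA-PK acts in the rejoining of broken ends. These steps are changes to proteins, and the transcript levels given here do not measure kinase activity.

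On the mouse build GRCm38 (mm10), in the GENCODE M21 annotation, the members are protein-coding genes. Atm lies at chr9:53439149-53536740 on the minus strand, Atr at chr9:95857597-95951781 on the plus strand and Prkdc at chr16:15637866-15842235 on the plus strand. Chek1 lies at chr9:36708482-36727065 on the minus strand and Chek2 at chr5:110839979-110874145 on the plus strand. Csnk1d lies at chr11:120961749-120991330 and Csnk1e at chr15:79417856-79455566, both on the minus strand. Promoter sequences of 5 members were in the RefSeq table of GRCm38.p6 (Atm, Atr, Chek1, Chek2 and Csnk1e). Those of Atr, Csnk1e and Chek2 are shown because these 3 members had the largest increases in group level in doxorubicin oocytes. Each is the 250 bases before a transcription start, in the direction of transcription. Capitals mark the GC box GGGCGG and the CCAAT box on either strand, so that CCGCCC and ATTGG are their reverse complements.
Atr, chr9:95857347-95857596, plus strand: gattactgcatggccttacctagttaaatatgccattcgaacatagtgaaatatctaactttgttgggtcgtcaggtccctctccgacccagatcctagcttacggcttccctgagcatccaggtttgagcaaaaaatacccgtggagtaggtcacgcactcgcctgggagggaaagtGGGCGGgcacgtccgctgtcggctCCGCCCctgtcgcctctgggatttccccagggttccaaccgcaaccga
Csnk1e (the first of its 4 start sites), chr15:79442144-79442393, minus strand: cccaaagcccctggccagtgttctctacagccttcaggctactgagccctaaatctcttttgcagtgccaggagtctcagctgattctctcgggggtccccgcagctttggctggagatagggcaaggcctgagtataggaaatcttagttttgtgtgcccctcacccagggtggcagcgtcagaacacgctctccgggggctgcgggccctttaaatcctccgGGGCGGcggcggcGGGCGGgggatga
Chek2, chr5:110839733-110839982, plus strand: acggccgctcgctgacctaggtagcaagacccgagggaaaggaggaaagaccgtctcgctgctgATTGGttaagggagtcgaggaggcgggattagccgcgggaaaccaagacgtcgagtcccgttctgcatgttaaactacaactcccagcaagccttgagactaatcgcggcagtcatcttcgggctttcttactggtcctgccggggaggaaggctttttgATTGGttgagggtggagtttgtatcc

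The windows of Atr and of the first Csnk1e start site held 2 GC boxes each and no CCAAT box, while that of Chek2 held 2 CCAAT boxes and no GC box. Atm held 1 of each and Chek1 held neither. Over the 32851 promoter windows compared, 32.7% held the GC box and 33.8% the CCAAT box. Neither the p53 half-site, held by 7.13% of the windows compared, nor the AP-1 site TGANTCA, held by 6.75%, was found in the windows of these 5 members. A match describes the letters only, and no match says only that these letters are not in this window.

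The longest transcripts of the 3 CK1 members share only short exact runs of bases. Similarity short of an exact match was not measured. The longest run of bases that the longest transcripts of Csnk1d and Csnk1e share is shown because these genes encode closely related kinases, and it is 23 bases long.
Csnk1d and Csnk1e shared run: ttcgactggaacatgctcaaatt
Of the 50-base stretches of each longest transcript, 5.28% in Csnk1e, 4.36% in Atr, 2.96% in Chek2 and 0.496% in Csnk1d also occurred in another annotated gene, and 0% in the other 4 members. For Csnk1e, Atr and Csnk1d the main partner was an antisense gene (Gm16059, Gm16794 and Gm28192). The library kit does not mark strand, so reads from overlapping antisense genes cannot be told apart from the member's own. The antisense rows themselves held at most 0.761 CPM in any group. Of the nonzero values, 79.7% for Csnk1d, 75.4% for Csnk1e and 61.2% for Chek2 were not whole numbers, against 31.9% over all genes, and how reads were split is not given in the sources used here.

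Total counts per cell ranged from 6834594 to 31262609 with a median of 11127487, and levels are given as CPM, the counts per 1000000 of a library's total. The defining markers fitted the oocyte labels in every oocyte, where 19 oocyte markers such as Gdf9 and Zp3 summed to between 18166 and 65320 CPM. These exceeded the granulosa markers in each oocyte, but some oocytes held granulosa markers too. Among control oocytes the granulosa marker sum had a median of 94.1 CPM and reached 800 CPM. Among treated oocytes the median was 99.5 CPM, but doxorubicin oocytes 9, 11 and 12 held 3561, 2912 and 2233 CPM. The granulosa marker carry-over therefore reached higher values in the treated group. The granulosa libraries were mixed. Their 18 granulosa markers, such as Foxl2 and Amh, summed to between 663 and 15105 CPM in control and between 1126 and 11735 CPM in doxorubicin libraries, but the oocyte markers exceeded the granulosa markers in 5 of 16 control and 8 of 13 doxorubicin libraries. The median oocyte marker sum was 1795 CPM over control granulosa cells against 9144 CPM over treated ones. Stroma markers summed to at most 13316 CPM, in control granulosa cell 13, and blood and immune markers to 33489 CPM in doxorubicin granulosa cell 15. The granulosa ratios are therefore also given among cells that meet limits on granulosa, oocyte and stroma markers. No limit used the blood and immune markers. Doxorubicin granulosa cell 15 met each limit, with 9424 CPM of granulosa, 2133 CPM of oocyte and 3461 CPM of stroma markers, and is kept in those ratios. Without doxorubicin granulosa cell 15 the 8 granulosa ratios of doxorubicin over control lay between -2.37 (Prkdc) and 0.39 (Csnk1d).

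All 8 kinase transcripts were present in every oocyte, whereas the checkpoint kinases were patchy among granulosa cells. Each member had at least 5 reads in 16 of 16 control and 16 of 16 doxorubicin oocytes. The share of all genes that reached 5 reads in every oocyte is not given here. Among granulosa cells, Csnk1a1 reached 5 reads in 16 of 16 control and 13 of 13 doxorubicin cells, Csnk1d in 13 and 12, and Csnk1e in 14 and 11. Of the checkpoint kinases, Atr reached it in 10 of 16 and 6 of 13, Atm in 7 and 3, Chek1 in 7 and 6, Chek2 in 7 and 5, and Prkdc in 5 and 3. None of the 29 granulosa cells held all 5 checkpoint kinases at that depth. If cells are taken as independent, this allows shares of up to 18.75% of control and 23.1% of doxorubicin cells. No animal is named, so cells may not be independent. The number of checkpoint kinases per granulosa cell ran from 0 to 4 with a median of 2 in both groups. The plot of the number of checkpoint kinases detected per cell shows this contrast. Granulosa libraries also held fewer genes, with a median of 8904 in control cells against 13675 in control oocytes, and 7276 against 12194 after thinning each cell to 1000000 counts. Among the 12373 genes tested between control groups, 23.3% had at least 5 reads in every control oocyte and in at most 8 control granulosa cells, as Atm, Prkdc, Chek1 and Chek2 did (4 of 8 members).

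**Figure D1:**
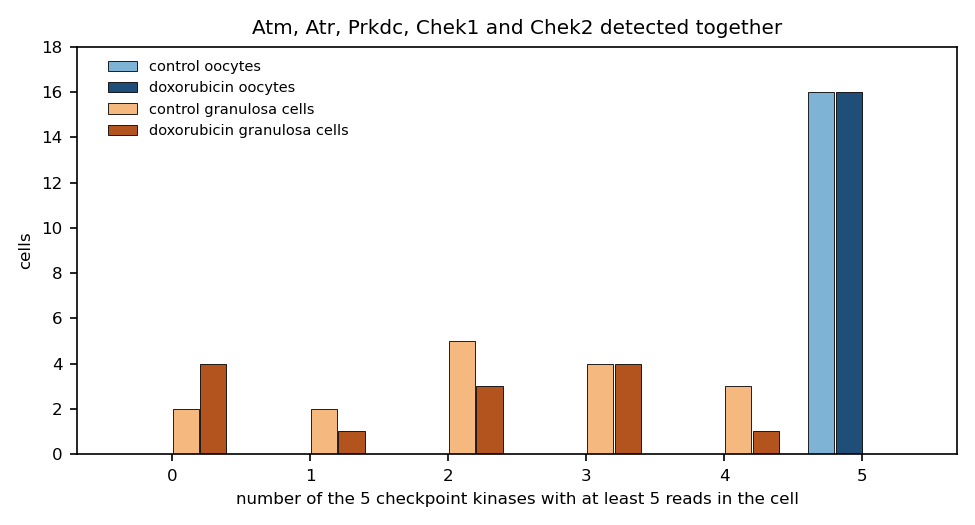
Number of cells (vertical axis) by how many of the 5 checkpoint kinases Atm, Atr, Prkdc, Chek1 and Chek2 had at least 5 reads in the cell (horizontal axis), with 1 bar per group. All 32 oocytes stand at 5, and the 29 granulosa cells spread from 0 to 4.

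**Figure D2:**
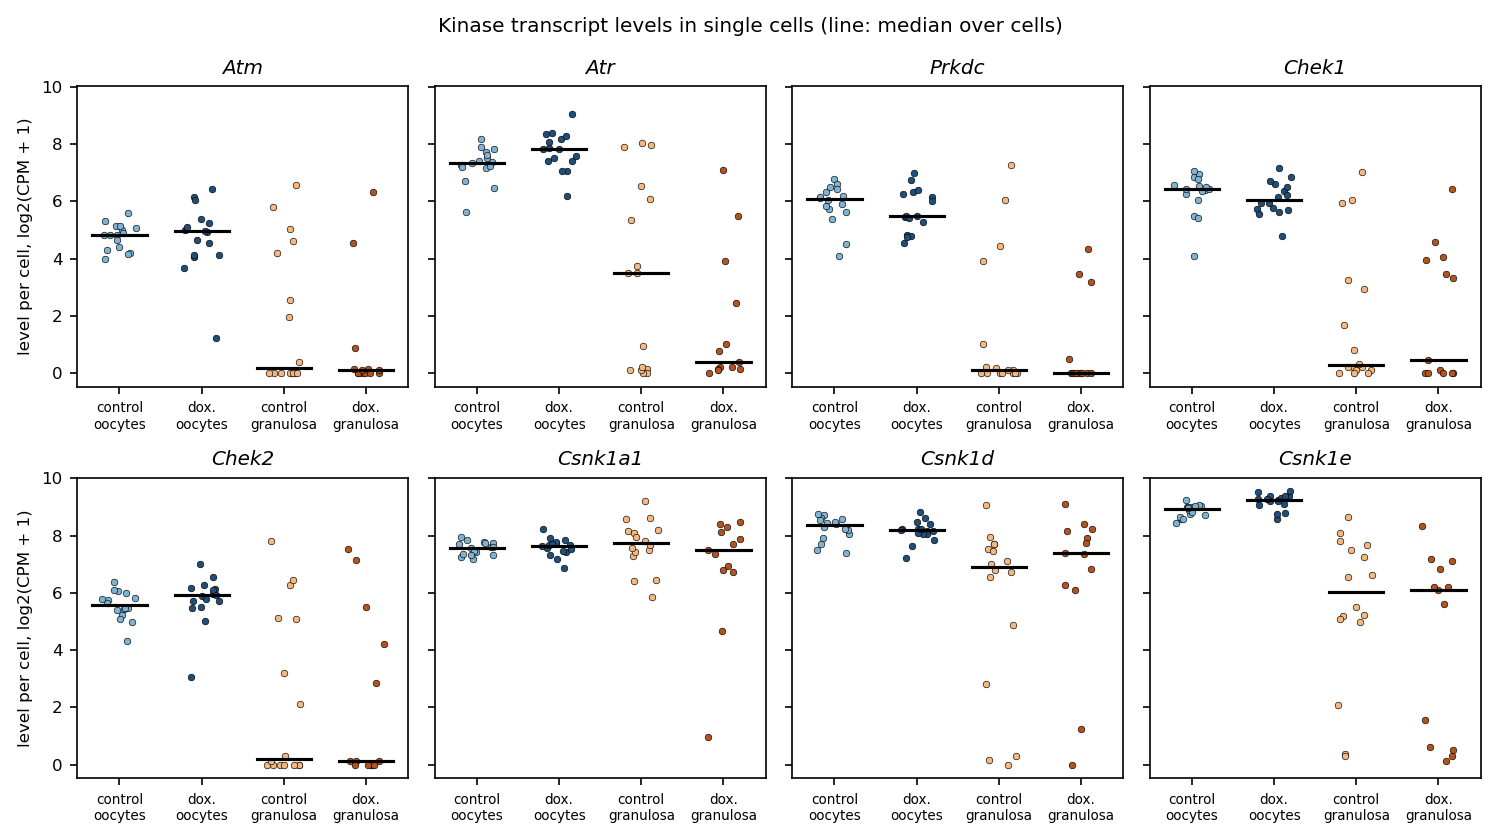
Level of each member in each cell as log2(CPM + 1), with 1 point per cell, columns for the 4 groups and a line at the median cell. Every oocyte lies above 1 CPM for every gene, the lowest being 1.35 CPM of Atm in a doxorubicin oocyte, and granulosa cells of both groups scatter down to or near 0 for every gene except Csnk1a1 in control cells, whose lowest cell is at 56.2 CPM.

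In control animals, 7 of the 8 members had a higher group level in oocytes than in granulosa cells, and Csnk1a1 was the exception. The group level, which is the summed counts of all cells over their summed totals, was at least 2-fold higher in oocytes for 5 of 8 members, against a background of 29% of the 12373 genes tested, and lower for 0 of 8, against 31.3%. Chek1 was at 85.4 CPM in control oocytes and 16.4 CPM in control granulosa cells, a log2 ratio of 2.38 (95% counting interval 2.33 to 2.44). Csnk1e had a log2 ratio of 2.06 (2.03 to 2.08), with 12 of 16 control oocytes above the highest control granulosa cell, a separation in at least 8 of 16 cells that 11.2% of genes showed. Prkdc had 2.0 (1.94 to 2.06), Atr 1.39 (1.36 to 1.42) and Csnk1d 1.22 (1.20 to 1.24). Atm at 0.87 and Chek2 at 0.62 stayed under 2-fold, and Csnk1a1 was at 191 CPM in oocytes and 243 CPM in granulosa cells, a log2 ratio of -0.35 (-0.37 to -0.33). The median over the 8 members was 1.31, against -0.03 over all genes tested, of which 49.3% were above 0. With only the 11 control granulosa cells whose granulosa markers exceeded their oocyte markers, the ratios were 0.75 for Atm, 1.43 for Atr, 3.07 for Prkdc, 1.91 for Chek1, 0.41 for Chek2, -0.07 for Csnk1a1, 1.32 for Csnk1d and 1.85 for Csnk1e, so the same 5 members stayed past 2-fold.

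Single granulosa cells carried much of these group levels. Control granulosa cell 9 supplied 37.9% of the group's Atm counts, 47.9% of its Chek1 counts and 44.8% of its Chek2 counts, and cell 16 supplied 66.8% of its Prkdc counts. Without cell 9 the oocyte over granulosa log2 ratio was 1.47 for Atm, 3.23 for Chek1 and 1.39 for Chek2, and without cell 16 it was 3.48 for Prkdc. The median control granulosa cell held 0.152 CPM of Atm, 0.208 CPM of Chek1, 0.157 CPM of Chek2 and 0.0757 CPM of Prkdc, each close to the worth of 1 to 3 reads. Less RNA captured from a cell and fewer copies of the transcript in it cannot be told apart here.

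Csnk1e was the leading CK1 transcript of oocytes and Csnk1a1 or Csnk1d that of most granulosa cells. Levels of different genes are compared as CPM per kilobase of the longest annotated transcript. In control oocytes the order was Csnk1e at 149.5 CPM per kb, Csnk1d at 88.0, Csnk1a1 at 46.8, Chek1 at 22.5, Chek2 at 20.4, Atr at 20.1, Prkdc at 5.18 and Atm at 2.83. The interquartile ranges over cells of Chek1 and Chek2, and of Chek2 and Atr, overlapped, and those of the other neighbours did not. In doxorubicin oocytes the order was Csnk1e at 187.6 CPM per kb, Csnk1d at 78.5, Csnk1a1 at 47.8, Atr at 29.6, Chek2 at 25.7, Chek1 at 19.3, Prkdc at 4.56 and Atm at 3.397. There the ranges of Atr and Chek2, of Chek2 and Chek1, and of Prkdc and Atm overlapped. In control granulosa cells Csnk1a1 stood first at 59.6 CPM per kb, before Csnk1d at 37.7, Csnk1e at 35.96, Chek2 at 13.3, Atr at 7.67, Chek1 at 4.32, Atm at 1.54 and Prkdc at 1.30, and all neighbours overlapped. In doxorubicin granulosa cells Csnk1d stood first at 51.3 CPM per kb, before Csnk1a1 at 45.01, Csnk1e at 22.7, Chek2 at 12.9, Chek1 at 2.93, Atr at 2.12, Atm at 0.815 and Prkdc at 0.236, and all neighbours but Atr and Atm overlapped.

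As a share of the summed CK1 level per kilobase, Csnk1e made up 52.6% in control oocytes, with single cells between 45.5% and 60.9%, and 59.8% in doxorubicin oocytes, with cells between 49.0% and 72.4%. It was the largest of the 3 shares in 16 of 16 cells of both groups. Csnk1d came next, at 30.9% in control and 25.01% in doxorubicin oocytes, and Csnk1a1 last, at 16.5% and 15.2%. In control granulosa cells Csnk1e made up 27.0%, Csnk1d 28.3% and Csnk1a1 44.7%, and Csnk1a1 led in 9 of 16 cells and Csnk1e in 3. In doxorubicin granulosa cells the shares were 19.1%, 43.1% and 37.8%, and Csnk1e led in 1 of 13 cells. That cell was doxorubicin granulosa cell 1, in which Csnk1e took 99.4% of the CK1 level and the oocyte markers summed to 45295 CPM, above the median doxorubicin oocyte at 33578 CPM. Its other members did not follow the oocyte pattern, with 0.73 CPM of Atr, 0.10 CPM of Chek2, 0.93 CPM of Csnk1a1, and 0 reads of Atm and Prkdc, beside 85.2 CPM of Chek1. With the mean transcript length in place of the longest, Csnk1e remained the largest share in both oocyte groups, at 59.8% and 66.9%, and became the largest in control granulosa cells too, at 35.4%, so the order of the 3 CK1 genes in granulosa cells depends on the length used.

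**Figure D3:**
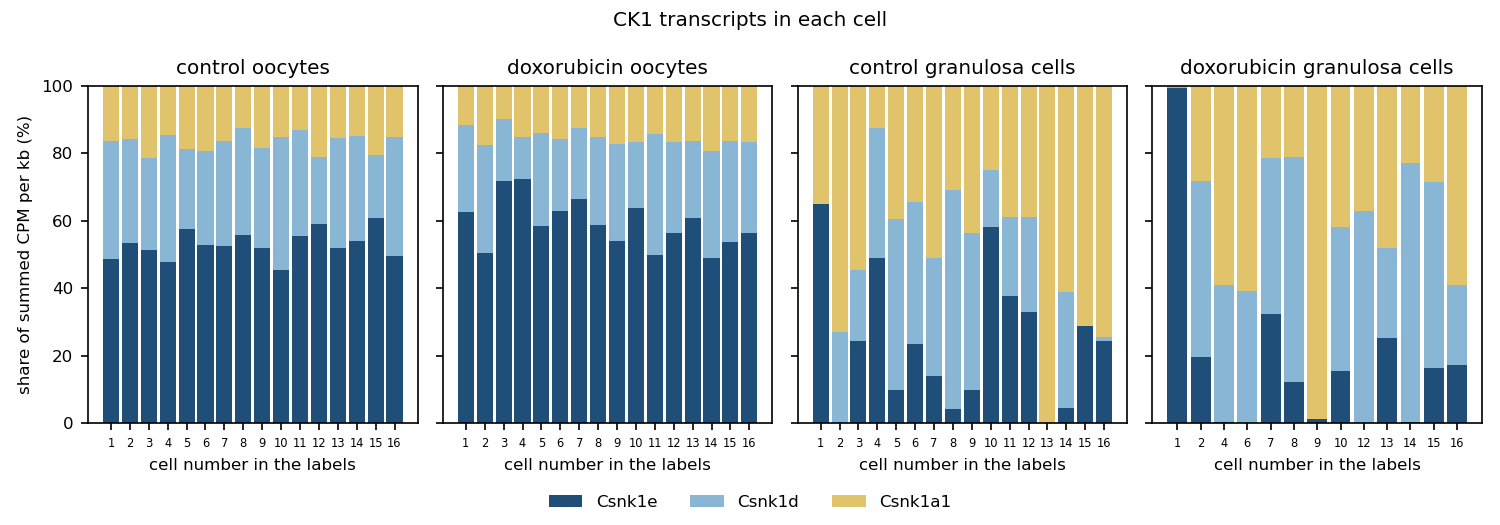
Share of Csnk1e, Csnk1d and Csnk1a1 in the summed CK1 level per kilobase of longest transcript (vertical axis, percent) in each cell (horizontal axis, cell number in the labels), with 1 panel per group. Csnk1e is the largest share in each of the 32 oocytes, and the granulosa cells range from 0.0259% to 99.4% Csnk1e.

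Within the PIKK family, Atr held 71.5% of the summed level per kilobase in control oocytes and 78.8% in doxorubicin oocytes, and led in 15 and 16 of 16 cells. Chek1 and Chek2 were near balance in control oocytes, where Chek1 made up 52.5% of their sum and led in 9 of 16 cells. In doxorubicin oocytes Chek1 made up 42.9% and led in 6 of 16 cells. The summed level of Chek1 and Chek2 was 131.8 CPM in control oocytes against 132.0 CPM in treated ones, so their total differed little while the balance moved toward Chek2. The cells overlapped widely in this balance, from 33.02% to 68.0% Chek1 in control and from 14.7% to 81.0% in doxorubicin oocytes.

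After doxorubicin, no member of the 8 changed its group level in oocytes by 2-fold, while 3 of the 4 listed target genes of p63 and p53 did (Cdkn1a, Bbc3 and Pmaip1). Atr was 1.47-fold and Csnk1e 1.25-fold higher in doxorubicin oocytes, and Chek1, Prkdc and Csnk1d were lower by less. At a log2 ratio of at least 1, 6.3% of the 11119 genes tested were higher and 2.45% lower. At a log2 ratio of at least 0.5, 13.8% were higher and 10.3% lower, and Atr was the only member called. The median over the 8 members was 0.15, against 0.01 over all genes tested, and 5 of 8 members were above 0, against 51.1% of all genes. Trp63 itself was at 97.3 CPM in control oocytes against 91.3 CPM in treated ones, a log2 ratio of -0.09 (-0.12 to -0.06). In the same cells Cdkn1a, the p21 cell cycle inhibitor, was higher by a log2 ratio of 3.06, Bbc3 by 2.86, Pmaip1 by 3.23 and Mdm2, the ubiquitin ligase that restrains p53, by 2.09. The fourth target gene, the death effector Bax, had a log2 ratio of 0.21.

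Atr lay between 47.9 and 286 CPM in control oocytes, with a median of 162, and between 71.4 and 523 CPM in doxorubicin oocytes, with a median of 227. In all, 4 of the 16 doxorubicin oocytes exceeded the highest control, 13 exceeded the control median, and the 2 groups overlapped. The log2 ratio was 0.56 (0.54 to 0.58), with a range of 0.44 to 0.61 when each cell was left out, the lowest value without doxorubicin oocyte 3. Among the 11 control and 11 doxorubicin oocytes whose granulosa markers summed to less than 200 CPM, it was 0.48.

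Atm lay between 14.9 and 47.5 CPM in control oocytes, with a median of 27.4, and between 1.35 and 84.7 CPM in doxorubicin oocytes, with a median of 29.8. The doxorubicin cells reached beyond the controls on both sides, with 3 above the highest and 2 below the lowest. Its log2 ratio was 0.26 (0.21 to 0.32), and fell to 0.11 without doxorubicin oocyte 12. That oocyte was the highest for Atm, with granulosa markers of 2233 CPM and stroma markers of 1468 CPM, whose part was not tested. Among oocytes with less than 200 CPM of granulosa markers the Atm ratio was 0.32. Doxorubicin oocyte 9 was the lowest doxorubicin oocyte for Atm (1.35 CPM), Atr (71.4 CPM) and Prkdc (22.4 CPM), and it also had the highest granulosa marker sum of any oocyte, 3561 CPM, whose part in these values was not tested.

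Prkdc lay between 15.9 and 109 CPM in control oocytes, with a median of 67.2, and between 22.4 and 127 CPM in doxorubicin oocytes, with a median of 44.0. The groups overlapped over nearly their whole range and 10 of 16 doxorubicin oocytes were at or under the control median. The group log2 ratio was -0.18 (-0.22 to -0.15), and the difference of the median cells on the log2(CPM + 1) scale was -0.60. The sign depended on which cells were kept, since the ratio was 0.06 among oocytes low in granulosa markers (less than 200 CPM), and 0.22 among the 10 control and 9 doxorubicin oocytes that were as low in stroma markers too. Over the 16 doxorubicin oocytes the Pearson correlation of Prkdc with the granulosa marker sum was -0.62 and with the stroma marker sum -0.67, values that share each cell's total. The part of these markers in the Prkdc difference was not tested.

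Chek1 lay between 16.1 and 132 CPM in control oocytes, with a median of 85.1, and between 26.7 and 142 CPM in doxorubicin oocytes, with a median of 65.8. Of the doxorubicin oocytes, 1 exceeded the highest control and none was below the lowest. The log2 ratio was -0.22 (-0.25 to -0.19) and stayed between -0.31 and -0.14 when each cell was left out.

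Chek2 lay between 18.7 and 82.8 CPM in control oocytes, with a median of 46.4, and between 7.43 and 127 CPM in doxorubicin oocytes, with a median of 59.0. In all, 12 doxorubicin oocytes exceeded the control median, 2 exceeded the highest control and 1, doxorubicin oocyte 4, was below the lowest. This gave a log2 ratio of 0.34 (0.30 to 0.38), between 0.22 and 0.43 when each cell was left out, but 0.04 among oocytes low in granulosa markers and 0.13 among those low in both marker sums. The correlation of Chek2 with total counts over the 16 doxorubicin oocytes was -0.59. The part of either in the Chek2 difference was not tested.

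Csnk1e lay between 348 and 598 CPM in control oocytes, with a median of 484, and between 384 and 748 CPM in doxorubicin oocytes, with a median of 610. In all, 9 of 16 doxorubicin oocytes lay above the highest control oocyte, and at least 8 of 16 did so for 1.96% of the genes tested. The log2 ratio was 0.33 (0.31 to 0.34), between 0.30 and 0.37 when each cell was left out. Among oocytes low in granulosa markers it was 0.36, and among those low in both marker sums 0.395. The fold was small, but for no other member did more than 4 doxorubicin oocytes exceed the highest control.

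The other CK1 genes differed less. Csnk1d lay between 167 and 430 CPM in control oocytes, with a median of 327, and between 149 and 446 CPM in doxorubicin oocytes, with a median of 290. Its log2 ratio was -0.16 (-0.18 to -0.15), and -0.07 without control oocyte 16, the deepest library. Csnk1a1 lay between 145 and 245 CPM in control oocytes, with a median of 190, and between 116 and 298 CPM in doxorubicin oocytes, with a median of 199. Its log2 ratio of 0.03 (0.01 to 0.05) changed sign, to -0.02, without doxorubicin oocyte 14. Doxorubicin oocyte 4 held the extreme value of 3 members, with the highest Csnk1e (748 CPM), the lowest Csnk1d (149 CPM) and the lowest Chek2 (7.43 CPM). The series text states that its raw data were lost, and without it the Csnk1e ratio was 0.30 and the Chek2 ratio 0.43. The ratios of the other members without it were 0.13 for Atm, 0.52 for Atr and -0.15 for Prkdc. They were -0.19 for Chek1, 0.02 for Csnk1a1 and -0.11 for Csnk1d.

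**Figure D4:**
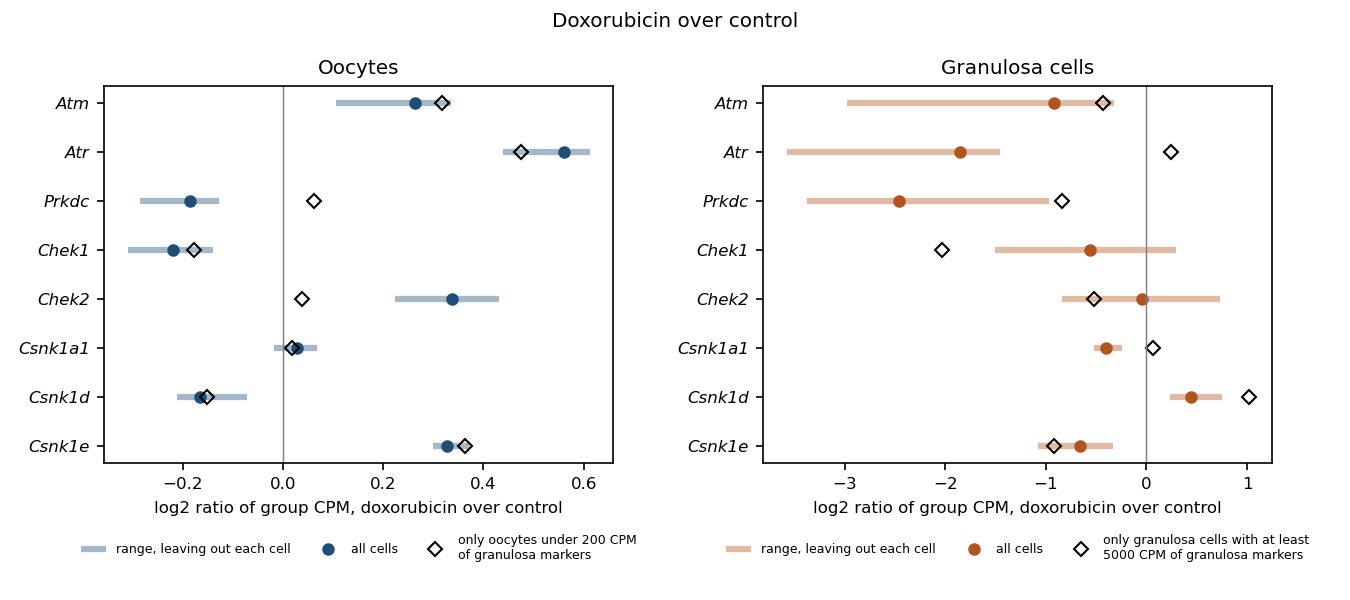
Log2 ratio of group CPM, doxorubicin over control (horizontal axis), of each member in oocytes (left) and granulosa cells (right), on different scales. Filled points use all cells, thick lines span the values when each cell is left out, and open diamonds keep only cells that meet a marker limit. In oocytes all points lie between -0.22 and 0.56, where the Prkdc diamond lies on the other side of 0 from its point. In granulosa cells the lines of Chek1 and Chek2 cross 0, and the diamonds of Atr and Csnk1a1 lie on the other side of 0 from their points.

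In granulosa cells, 7 of the 8 members had a lower group level after doxorubicin and Csnk1d a higher one, but for the checkpoint kinases these values rested on 1 or a few cells. Atr and Prkdc were lower by at least 2-fold (2 of 8 members), and 20% of the 12194 genes tested were. No member was higher by 2-fold, and 20.6% of genes were. The median over members was -0.61, against -0.03 over all genes tested, and 1 of 8 members was above 0, against 48.9% of all genes.

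Atr lay between 0 and 262 CPM in control granulosa cells, with a median of 10.3, and between 0 and 135 CPM in doxorubicin granulosa cells, with a median of 0.312. Of the 13 doxorubicin cells, 3 exceeded the control median. Its log2 ratio was -1.86 (-1.92 to -1.79), and it was -3.58 without doxorubicin granulosa cell 8, which held 72.5% of that group's Atr counts. Among the 8 control and 6 doxorubicin cells whose granulosa markers reached 5000 CPM the sign turned, to 0.25, with 23.1 CPM in control against 27.5 CPM in treated cells. Among the 10 control and 4 doxorubicin cells whose granulosa markers exceeded both oocyte and stroma markers it was -0.76, and -0.92 among the 11 control and 5 doxorubicin cells whose granulosa markers exceeded their oocyte markers, so each of these limits ended the 2-fold call.

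Prkdc lay between 0 and 153 CPM in control granulosa cells and between 0 and 19.3 CPM in doxorubicin granulosa cells, and 7 of 16 and 9 of 13 cells had 0 reads. This gave a log2 ratio of -2.46 (-2.61 to -2.31), and -0.97 without control granulosa cell 16, which ended the 2-fold call. That cell's granulosa markers summed to 889 CPM and its stroma markers to 4384 CPM. Without doxorubicin granulosa cell 7 the ratio was -3.38. It was -0.84 among cells whose granulosa markers reached 5000 CPM, -1.12 where they exceeded the oocyte markers and -1.85 where they exceeded both oocyte and stroma markers.

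Atm, with a group level of 15.2 CPM in control and 8.004 CPM in doxorubicin granulosa cells, had a log2 ratio of -0.92 (-1.02 to -0.82). Doxorubicin granulosa cell 7 held 77.8% of that group's Atm counts, and the ratio was -2.98 without it and -0.33 without control granulosa cell 9. Among the 11 control and 5 doxorubicin cells whose granulosa markers exceeded their oocyte markers, the doxorubicin cells held 10 Atm counts in all, 0.173 CPM, against 16.5 CPM in control cells. Where granulosa markers reached 5000 CPM, which keeps treated cell 7, the ratio was -0.43, with 18.2 CPM in control against 13.5 CPM in treated cells. The cells of both groups were mostly at or near 0 reads, so these folds rest on few cells.

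Chek1 (16.4 CPM in control and 11.1 CPM in doxorubicin granulosa cells) and Chek2 (30.2 and 29.4 CPM) had ratios whose sign turned when 1 control cell was left out. The Chek1 log2 ratio was -0.56 (-0.65 to -0.47), and it was -1.50 when treated cell 1 was left out but 0.29 when control cell 9 was. It lay further below 0 among the marker-limited cells, at -1.61 where granulosa markers exceeded oocyte markers, -2.03 where they reached 5000 CPM and -1.84 where they exceeded both oocyte and stroma markers. The Chek2 ratio was -0.04 (-0.10 to 0.02), and it was -0.84 when treated cell 16 was left out but 0.73 when control cell 9 was. Under the same marker limits it was 0.14, -0.52 and 0.35.

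The CK1 genes were detected in most granulosa cells. Csnk1d lay between 0 and 534 CPM in control cells, with a median of 119, and between 0 and 547 CPM in doxorubicin cells, with a median of 168. Of the doxorubicin cells, 1 exceeded the highest control and 8 of 13 exceeded the control median. The log2 ratio was 0.44 (0.42 to 0.47), between 0.23 and 0.75 when each cell was left out, and 1.02 among cells whose granulosa markers reached 5000 CPM. It was 0.53 where these exceeded the oocyte markers and 0.57 where they exceeded both oocyte and stroma markers. Csnk1e lay between 0.244 and 404 CPM in control cells, with a median of 68.8, and between 0.0924 and 323 CPM in doxorubicin cells, with a median of 66.7. The medians of Csnk1e were nearly equal while its group ratio was -0.66 (-0.70 to -0.63), and -0.33 without control granulosa cell 10. Among the marker-limited cells it was -1.03 (above oocyte markers), -0.92 (5000 CPM) and -1.68 (above both), so 2 of these 3 limits placed it past 2-fold. Csnk1a1 lay between 56.2 and 589 CPM in control cells, with a median of 211, and between 0.934 and 358 CPM in doxorubicin cells, with a median of 181. Its log2 ratio was -0.40 (-0.43 to -0.38), 0.07 among cells whose granulosa markers reached 5000 CPM, -0.13 where they exceeded the oocyte markers and -0.31 where they exceeded both.

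Between cell types after doxorubicin, all 8 members had a higher group level in oocytes, against 50.4% of the 12428 genes tested. At least 2-fold higher were 5 of 8 members, against 27.6% of genes, while 28.2% were at least 2-fold lower and no member was. The log2 ratio was 4.27 for Prkdc (4.13 to 4.42), 3.81 for Atr (3.75 to 3.86), 3.05 for Csnk1e (3.02 to 3.07), 2.72 for Chek1 (2.65 to 2.80) and 2.06 for Atm (1.97 to 2.15). Every doxorubicin oocyte exceeded the highest doxorubicin granulosa cell for Prkdc and for Csnk1e, and 13 of 16 did for Atr, where 9.76% of genes had at least 8 of 16 oocytes above. Chek2 at 0.997, just under the threshold, Csnk1d at 0.61 and Csnk1a1 at 0.09 differed by less. Without doxorubicin granulosa cell 8 the Atr ratio was 5.53, without cell 7 those of Atm and Prkdc were 4.11 and 5.19, and without cell 16 that of Chek2 was 1.79. With only the 5 doxorubicin granulosa cells whose granulosa markers exceeded their oocyte markers, a limit added after the data were seen, the ratios were 4.0 for Prkdc, 2.91 for Atr, 3.20 for Csnk1e, 3.29 for Chek1, 0.61 for Chek2, 0.62 for Csnk1d and 0.08 for Csnk1a1, and 7.59 for Atm, whose 10 granulosa counts leave it poorly set. This comparison and the control one share no cells, but the control and doxorubicin groups of each cell type enter the comparisons above as well.

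The members also differed in how evenly the oocytes held them. The coefficient of variation over cells describes single libraries, since cells are not replicates. Csnk1e had 0.15 over control and 0.18 over doxorubicin oocytes, and Csnk1a1 0.16 and 0.21. Among genes within 2-fold of the same mean level in control oocytes, 9.62% varied less than Csnk1e and 6.32% less than Csnk1a1. Atr was among the more variable, at 0.35 and 0.45, with 76.2% of like genes below it in control and 87.2% in doxorubicin oocytes. Atm went from 0.32 in control oocytes, where 9.45% of like genes varied less, to 0.69 in doxorubicin oocytes, where 67.3% did. Its highest and lowest doxorubicin oocytes, 12 and 9, had granulosa markers of 2233 and 3561 CPM, whose part in this spread was not tested.

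The genes that work beside these kinases were taken from 7 lists of 63 genes, of which 62 had a row. In oocytes 60 had at least 5 CPM in either group, and 34 were higher and 26 lower after doxorubicin, 8 of them higher and 0 lower by at least 2-fold, with a median log2 ratio of 0.08. Over all genes tested 51.1% were above 0, and 6.3% were higher and 2.45% lower by 2-fold. None of the 15 damage sensors and kinase partners, such as Atrip, the partner of ATR, moved by 2-fold, with 7 higher and 8 lower, and none of the 8 genes of the PIKK family and its assembly did, with 3 higher and 5 lower. Of the 11 checkpoint mediators, which bring kinases and substrates together at breaks, 7 were higher and 4 lower. The only one past 2-fold was Trp53bp1, which encodes the break-binding protein 53BP1, at 9.12 CPM in control oocytes against 42.2 CPM in treated ones, a log2 ratio of 2.21 (2.14 to 2.29), with at least 5 reads in 12 of 16 doxorubicin oocytes. Of 8 other CK1 genes and FAM83 scaffolds, the proteins that anchor CK1 in the cell, 5 were higher and 3 lower. The scaffolds past 2-fold, named after their values were seen, were Fam83b at 1.21 CPM in control oocytes against 14.7 CPM in treated ones and Fam83h at 0.107 against 7.57 CPM, and they reached 5 reads in only 10 and 5 of 16 doxorubicin oocytes. Of 9 substrates and cell cycle effectors 4 were higher and 5 lower, and 2 were higher by 2-fold, Mdm2 and the p53 family member Trp73, which was at 1.56 CPM in control against 49.0 CPM in treated oocytes, with at least 5 reads in 10 of 16 doxorubicin oocytes and was named after its values were seen. Of 5 opposing phosphatases 4 were higher and 1 lower, none by 2-fold. All 4 target genes (Cdkn1a, Bbc3, Pmaip1 and Bax) were higher, 3 of them by 2-fold.

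In granulosa cells 54 of these genes were tested, with 23 higher and 31 lower, and 9 higher and 7 lower by 2-fold. Over all genes tested there 48.9% were above 0, and 20.6% were higher and 20% lower by 2-fold. Those detected in at least 75% of the cells of the higher group with the largest ratios were Cdkn1a at 6.42, Atrip at 1.72, Mdm2 at 1.47 and the death effector Bax at 1.45, with Rpa1, a subunit of the single-strand DNA binding complex that brings ATR to damage, at -1.57. Atrip, at 15.1 CPM in control against 49.7 CPM in treated granulosa cells, was higher in the group whose oocyte marker sum was also higher (median 9144 CPM against 1795 CPM), and the part of those markers was not tested. Between control oocytes and control granulosa cells, 14 of the 15 sensors and partners were higher in oocytes, 9 of them by 2-fold, against 49.3% and 29% of all genes tested. The ATR activator Etaa1 had a log2 ratio of 3.74, the mediator Mdc1 4.04, the CK1 scaffold Fam83g 3.45 and Trp63 2.88, whereas Trp53bp1 was lower in oocytes at -3.11. Among those of these genes with at least 5 reads in at least 75% of the cells of the higher group, the largest ratios of doxorubicin oocytes over doxorubicin granulosa cells were those of the checkpoint clamp subunit Hus1 at 9.27, Etaa1 at 4.35, Bard1, the partner of BRCA1, at 4.35, Trp63 at 4.22 and the replication fork protein Timeless at 4.05. The ratio of Hus1 was set by a near absence in doxorubicin granulosa cells, at 0.028 CPM.

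The members did not vary together from oocyte to oocyte. Over the 32 oocytes, with each group's mean removed, the Pearson correlation of log2(CPM + 1) was above 0 for 14 of the 28 pairs of members, with a median of -0.01, and 12 pairs had the same sign in both groups. The highest was 0.41 for Atm with Atr (0.46 over control and 0.44 over doxorubicin oocytes), and the lowest was -0.42 for Chek2 with Csnk1e (-0.59 and -0.35). Within the 16 doxorubicin oocytes Atr had a correlation of 0.28 with Cdkn1a, 0.38 with Mdm2 and 0.44 with Pmaip1, and also 0.44 with total counts. Csnk1e had 0.01 with Cdkn1a and 0.22 with Pmaip1. Other members had negative values, such as -0.56 for Csnk1d with Pmaip1, -0.49 for Csnk1d with Mdm2, -0.49 for Csnk1a1 with Bbc3, and -0.41 for Chek1 with Bbc3. Over the 16 control oocytes Atr had -0.34 with Cdkn1a, 0.49 with Mdm2 and 0.23 with Pmaip1, and Csnk1e 0.48 with Cdkn1a and 0.07 with Pmaip1. There Csnk1d had 0.12 with Pmaip1 and 0.42 with Mdm2, Csnk1a1 -0.03 with Bbc3 and Chek1 0.32 with Bbc3. Prkdc with Cdkn1a had 0.76 over control and -0.38 over doxorubicin oocytes. These are descriptions over cells that share library chemistry and depth.

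For each member, the 2 genes with the highest correlation over the 32 oocytes were found in the same way. They were Ascc2 (0.78) and Gnb4 (0.78) for Atm, Btbd2 (0.76) and Pacsin2 (0.74) for Atr, and Zfp84 (0.73) and Tbl3 (0.72) for Prkdc. For Chek1 they were Cdc6 (0.74), which loads the replicative helicase, and Slc24a2 (0.71), and for Chek2 they were Gm28439 (0.71) and Resf1 (0.68). The CK1 genes had Pja2 (0.58) and Gm8822 (0.57) for Csnk1a1, Zfp704 (0.70) and Glud1 (0.69) for Csnk1d, and Atp2c2 (0.62) and Noxo1 (0.61) for Csnk1e. Each is the highest of 10327 genes compared, and no member was among the nearest genes of another member.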

How the data were processed

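Libraries of single oocytes and granulosa cells were made with the SMART-seq v4 and Nextera XT kits and sequenced as read pairs, per the labels' protocols. The values deposited are estimated counts in 1 table of genes by cells, and 31.9% of those above 0 were not whole (tolerance 0.0005). The submitters' processing notes name the build mm10 and the tools Partek, HISAT2, Bowtie2 and DESeq2, and their roles are not given in the sources used here. All cells carry 1 batch label, and 61 columns were used. Totals per cell limit precision as given above, and reads without molecular identifiers are not independent molecules, so intervals cover counting error only.

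The estimated counts were rounded and summed over the cells of a group. Each comparison is given as a log2 ratio of the resulting CPM (a group under 3 counts set to 3), with an exact conditional binomial 95% interval. Genes reaching 5 CPM in either group were tested, meaning set against the fold threshold of 2. With 1 sample per group there was no test between groups. The members, lists and limits were chosen with earlier results of these data known. Named list genes are up to 5 per comparison with the largest ratio among those with at least 5 reads in at least 75% of the cells of the higher group, and for each member the 2 genes of highest correlation.

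Alternatives were the equal-weight mean of cells, the difference of cell medians of log2(CPM + 1), edgeR TMM and DESeq2 factors, filters at 1 and 20 CPM, the marker limits, and leaving out each cell. Keeping only granulosa cells whose markers exceed both other marker sums was chosen after seeing the data. The calculation was tested on simulated data. Python 3.11.15, numpy 2.4.6, pandas 2.3.3, scipy 1.17.1, matplotlib 3.10.9, R 4.3.3, edgeR 4.0.16 and DESeq2 1.42.0 were used.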

Additional observations from a re-analysis of the deposited data

Results flagged for a closer look

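For 4 members the group level moved in opposite directions in oocytes and granulosa cells after doxorubicin, outside the counting intervals of both, and stayed on those sides when each cell was left out in turn. The log2 ratio in oocytes minus that in granulosa cells was 1.18 for Atm, 2.42 for Atr, -0.61 for Csnk1d and 0.99 for Csnk1e. The difference was not tested, since each group is 1 sample. Of the 10045 genes tested in both cell types, 43.0% lay on opposite sides of 0 by the counting intervals alone, and so did 5 of the 8 members, the fifth being Csnk1a1, whose sign in oocytes turned without doxorubicin oocyte 14. The share of all genes that also kept their sides when each cell was left out was not computed. The count of 4 is therefore not read as particular to these members. The Atr value rests on granulosa libraries, where the ratio was 0.25 with only cells whose granulosa markers reached 5000 CPM. By the difference of cell medians the granulosa value was -0.08 for Atm, -3.10 for Atr, 0.51 for Csnk1d and 0.05 for Csnk1e. By that measure Csnk1e did not move in opposite directions, since its oocyte value was 0.33.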

How the results depend on the processing

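No paired analysis was possible because the results come from no test and cells of different groups share only a number. The count of members higher in oocytes was 5, 6 among oocytes low in granulosa markers, and 4 to 5 when each cell was left out. The median over members in oocytes (0.15) was 0.095 by cell medians, 0.051 among oocytes low in granulosa markers and 0.078 without doxorubicin oocyte 4, with 0.066 to 0.18 when each cell was left out. In granulosa cells the median (-0.61) was -0.54 by the equal-weight mean, -0.083 by cell medians, -0.975 with only own markers above the other type, -0.475 where granulosa markers reached 5000 CPM, -1.22 with granulosa above oocyte and stroma markers and -0.405 at 20 CPM, with -0.95 to -0.38 when each cell was left out. The count higher there (1) was 2 by the mean, 3 by cell medians, 2 with own markers, 3 at 5000 CPM and 2 with granulosa above both, and 1 to 3 when each cell was left out. The median of control oocytes over control granulosa cells (1.31) was 4.24 by cell medians, 1.36 with DESeq2 factors and 1.37 with own markers, and 1.20 to 1.53 when each cell was left out. The Csnk1e share by mean transcript length was 59.8%, 66.9%, 35.4% and 24.9% in control oocytes, doxorubicin oocytes, control granulosa cells and doxorubicin granulosa cells. The Atr ratio in granulosa cells reversed, to 0.25, at 5000 CPM of granulosa markers, which keeps fewer cells. The sign also turned in at least 1 setting for Prkdc and Csnk1a1 in oocytes. In granulosa cells it did so for Chek1, Chek2, Csnk1a1 and Csnk1e. Of the other alternatives for single members, 96 moved the value beyond its counting interval and 71 did not. The causes were not tested. Low reads per granulosa cell limit what can be said of the checkpoint kinases there.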
